A study of Canis lupus familiaris with 33 samples.

Results

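The genes described here are the TGF-beta ligands TGFB1 and TGFB3, the receptors TGFBR1, TGFBR2 and TGFBR3, and SMAD7, the inhibitory SMAD of the pathway. They were chosen by name from a list of 7 genes, and 6 were matched by symbol to a row among the 25096 genes read from the TMM-normalized table. TGFB2, the remaining ligand on the list, was not analysed here. Of 11089 symbols matched to a RefSeq gene table of another assembly, UU_Cfam_GSD_1.0, 11070 belong to chromosomes 1 to 26. Genes of other chromosomes were not analysed here, so every share of all genes tested is a share of that part of the genome.

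TGF-beta ligands are secreted in a latent form, held in the matrix by latent TGF-beta binding proteins, and released by proteases or integrins. The active ligand joins the type II receptor TGFBR2 with the type I receptor TGFBR1, which phosphorylates SMAD2 and SMAD3 so that they enter the nucleus with SMAD4, and the type III receptor TGFBR3 (betaglycan) presents ligand to that complex. SMAD7 is induced by the pathway and blocks the type I receptor, and in bladder the pathway is known for restraining epithelial growth and for driving matrix production by stromal cells.

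RNA was measured by RNA-seq in 29 canine invasive urothelial carcinoma (iUC) tumors and 4 normal bladder mucosa samples. The tumors were naturally occurring, of high grade, and taken by cystoscopic biopsy before any treatment, with 1 tumor from each of 29 dogs of any age, sex or breed. The normals, lettered A to D, were mucosa separated by fine dissection from bladders of dogs euthanized for other reasons, and are labelled normal urothelial cells. All libraries were made and sequenced together, and the labels give no age or genotype for a sample.

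Values are log2 normalized expression from which the median of the gene over the 33 samples had been subtracted, so a value of 0 is the gene's own median and levels cannot be compared between genes. Of 24471 genes tested, 10.7% were called higher and 45.8% lower in tumors, at an adjusted p of at most 0.05 by limma with Benjamini-Hochberg adjustment and a change of at least 2-fold. The median log2 fold change of all genes tested was -0.84. Many genes have a lowest value that several samples share, and 3699 to 8175 genes were at it in a tumor, against 755 to 1019 in a normal. None of the 6 genes was at such a value in any sample. In the deposited DESeq-normalized table every log2 fold change of these 6 genes was lower by 0.30, and the calls that this moves are given with each gene.

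The tissue labels were compared with marker genes. All 5 measured smooth muscle markers, among them ACTG2 and MYH11, were lower in tumors, and their mean level was 4.94 to 6.97 in the normals and -1.28 to 3.89 in the tumors, with a tumor median of -0.11. Of 7 fibroblast markers 5 were lower in tumors, with a mean level of 1.68 to 2.29 in the normals and a tumor median of -0.28. All 3 nerve markers were lower too, with a median log2 fold change of -6.51. Of 9 urothelial markers 6 were higher in tumors, and their mean level in the normals was -2.23 to -0.76. That count was 3 without normal D and 3 in the DESeq-normalized data. The samples labelled normal urothelial cells therefore carried RNA of muscle and nerve markers above the level of all 29 tumors. None of 6 endothelial markers was called, with a median log2 fold change of -0.05. In bulk tissue such as this, fewer cells of a type and less RNA per cell cannot be told apart.

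Of the 6 genes, TGFB3 and TGFBR3 were called lower in tumors and SMAD7 higher, and TGFB1, TGFBR1 and TGFBR2 were not called. The share called in either direction over all genes tested was 56.5%.

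TGFB3, the ligand that fell, had values of 2.18, 3.07, 2.68 and 3.48 in normals A, B, C and D. In the 29 tumors the lowest value was -2.40, the median -0.09 and the highest 2.85. The groups overlapped through 1 tumor only: 28 of 29 tumors lay below every normal. Over all genes tested, 34.3% had at least 28 tumors below every normal. Normals averaged 2.85 ± 0.55 (SD, n = 4) and tumors -0.31 ± 1.22 (SD, n = 29). The log2 fold change was -3.16 (standard error 0.60, 95% interval -4.39 to -1.94), an 8.97-fold lower level, with an adjusted p of 2.23e-05 by limma. An exact permutation test of the same difference, two-sided, gave p = 7.33e-05.

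TGFB3 fell together with the smooth muscle and fibroblast markers given above. The 2 tumors with the highest smooth muscle markers, with mean levels of 3.89 and 3.24, had TGFB3 values of 0.97 and 1.40, both above the tumor median and below every normal. Without these 2 tumors, a setting added after the data were seen, the log2 fold change was -3.28. The part of muscle and fibroblast content in the fall was not tested.

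TGFB1, the ligand best known from cancers and from regulatory T cells, had values of 0.01, 0.25, 0.08 and 0.67 in normals A to D. The tumors ran from -1.32 through a median of -0.42 to 1.00. The groups overlapped on both sides, with 17 tumors below every normal, 5 above every normal and 7 within their range. Normals averaged 0.25 ± 0.30 (SD, n = 4) and tumors -0.19 ± 0.70 (SD, n = 29), and the log2 fold change of -0.45 (standard error 0.35) did not pass the test, with an adjusted p of 0.258 by limma. Its 95% interval, -1.17 to 0.27, takes in both a fall past the 2-fold threshold and a small rise.

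The tumor values of TGFB1 left a gap between -0.42 and -0.01, with 15 tumors below it and 14 above. It was noticed after the values were seen.

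TGFBR1, the type I receptor kinase, had values of -0.37, 0.21, -0.12 and -0.36 in normals A to D. In the tumors the lowest value was -0.66, the median 0.05 and the highest 1.53. The groups overlapped, and 12 tumors lay within the range of the normals. The log2 fold change was 0.22 (standard error 0.28, 95% interval -0.35 to 0.80), with an adjusted p of 0.488 by limma, and it was -0.076 in the DESeq-normalized table, so that no direction was set for this gene.

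TGFBR2, the type II receptor that binds ligand first, had values of -0.60, -0.84, -0.51 and -0.34 in normals A to D. The tumors ran from -0.81 through a median of 0.05 to 1.71. No tumor lay below every normal, 24 of 29 lay above every normal, and 5 were within the normal range, and 19.9% of all genes tested had at least 24 tumors above every normal. Normals averaged -0.57 ± 0.21 (SD, n = 4) and tumors 0.23 ± 0.66 (SD, n = 29). The log2 fold change was 0.80 (standard error 0.33, 95% interval 0.13 to 1.47), with an adjusted p of 0.0300 by limma, which passes the p threshold and misses the 2-fold one. Over all genes tested 22.9% were higher at that p with no fold threshold. In the DESeq-normalized table the difference was 0.50 with an adjusted p of 0.179, and without normal A, B or C the adjusted p by limma was 0.0658, 0.0955 or 0.0548.

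TGFBR3, the co-receptor betaglycan, had values of 1.38, 1.64, 1.92 and 1.86 in normals A to D. In the tumors the lowest value was -1.99, the median -0.20 and the highest 1.51. Of 29 tumors 27 lay below every normal and 2 were within the normal range, where 37.3% of all genes tested had at least 27 below. Normals averaged 1.70 ± 0.25 (SD, n = 4) and tumors -0.23 ± 0.96 (SD, n = 29). The log2 fold change was -1.93 (standard error 0.48, 95% interval -2.90 to -0.96), a 3.81-fold lower level, with an adjusted p of 0.000584 by limma and p = 9.78e-05 by the exact permutation test. Without the 2 tumors highest in smooth muscle markers it was -1.97. As for TGFB3, the part of muscle and fibroblast content was not tested.

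SMAD7, the feedback inhibitor, had values of -0.92, -0.74, -1.37 and -1.23 in normals A to D. The tumors ran from -1.21 through a median of 0.08 to 1.67. No tumor lay below every normal and 24 of 29 lay above every normal, as for TGFBR2, a count that 19.9% of all genes tested reached. Normals averaged -1.06 ± 0.29 (SD, n = 4) and tumors 0.04 ± 0.68 (SD, n = 29). The log2 fold change was 1.10 (standard error 0.34, 95% interval 0.40 to 1.79), a 2.14-fold higher level, with an adjusted p of 0.00489 by limma and p = 0.00345 by the exact permutation test. The gene lies near the fold threshold: the log2 fold change was 0.80 (adjusted p = 0.0351 by limma) in the DESeq-normalized table and just under 1.00 without normal C, and in both settings it was under 2-fold.

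**Figure D1:**
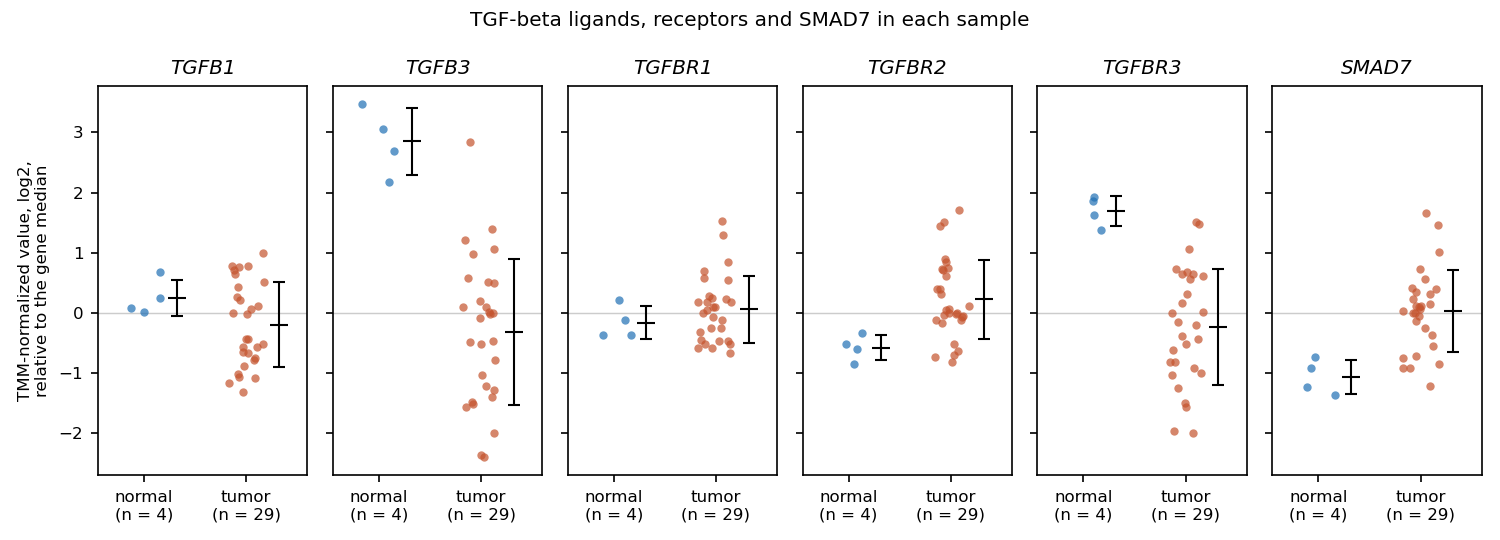
Each point is 1 sample, normals in blue (n = 4) and tumors in red (n = 29), and the y axis is the TMM-normalized value on the log2 scale relative to the median of the gene. The bar is the mean with 1 SD. For TGFB3, 28 of 29 tumors sit below the normals, for SMAD7, 24 of 29 sit above them, and for TGFBR1 the groups overlap.

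The ligands and receptors were then compared with each other within each sample, since a ratio between genes of 1 sample does not depend on how that sample was scaled. Each ratio is a difference of log2 values. For TGFB1 minus TGFB3 it was -2.81 to -2.17 in the normals, and in the tumors it was -2.59 at the lowest, 0.40 at the median and 1.78 at the highest. It was higher in tumors by 2.72 on average, and 28 of 29 tumors lay above every normal. The exact permutation test, two-sided, gave p = 4.89e-05 and an adjusted p of 0.000196 over the 4 ratios compared. TGFB3 thus fell relative to TGFB1 within the same libraries.

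Both signalling receptors stood higher relative to the co-receptor in tumors. TGFBR2 minus TGFBR3 averaged -2.27 ± 0.23 (SD, n = 4) in the normals against 0.46 ± 1.31 (SD, n = 29) in the tumors, a difference of 2.73, with 27 tumors above every normal and an adjusted p of 0.000196 by the exact permutation test. TGFBR1 minus TGFBR3 averaged -1.86 ± 0.35 (SD, n = 4) in the normals against 0.29 ± 1.10 (SD, n = 29) in the tumors, a difference of 2.15, with 28 tumors above every normal and an adjusted p of 0.000521 by the same exact test. The ratio of TGFBR1 to TGFBR2 differed by -0.58 between the groups, with an adjusted p of 0.208 by the exact test. The first 2 of these ratios share TGFBR3, so they are not separate pieces of evidence. How often other pairs of genes reach such counts of tumors above every normal was not computed.

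**Figure D2:**
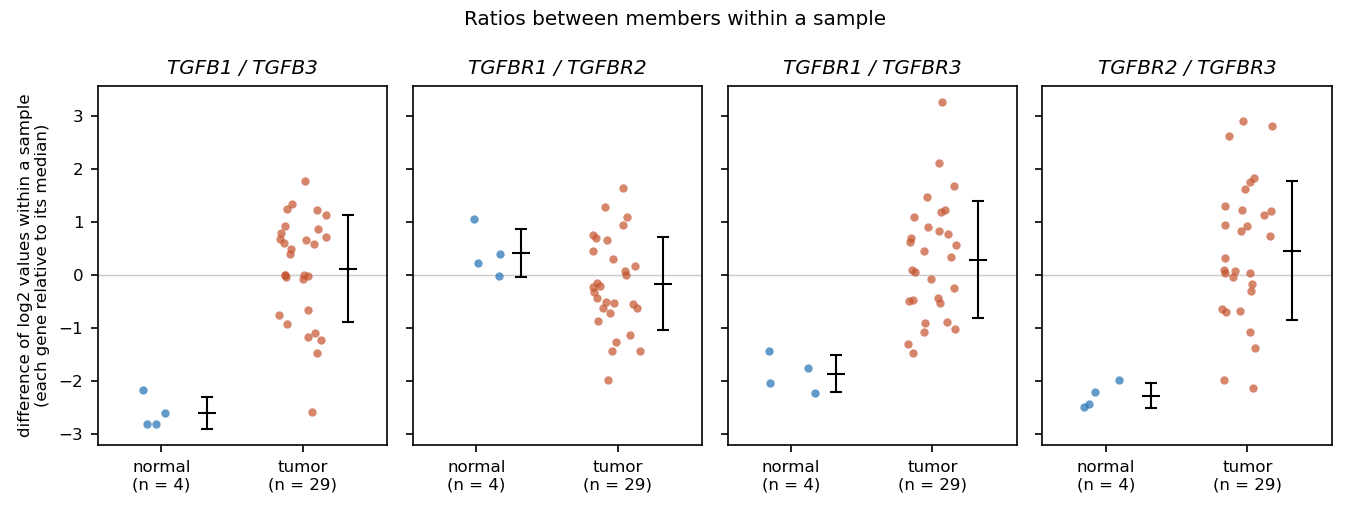
Each point is the difference of 2 log2 values within 1 sample, for the ligands and for the 3 receptor pairs, with the mean and 1 SD beside each group. The TGFB1 to TGFB3 ratio is -2.60 on average in normals and 0.12 in tumors, and the TGFBR1 to TGFBR2 ratio overlaps between the groups.

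Other genes of the pathway were described from 4 lists by role, of which 35 of 56 genes were found among the genes read. The other 21 were not analysed here, and 15 of them lie outside chromosomes 1 to 26. Of the 35, 5 were called higher and 6 lower in tumors, and 24 were not called, with a median log2 fold change of 0.13, where 10.7% and 45.8% of all genes tested were called. In the DESeq-normalized data 3 were called higher.

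Of 7 measured genes listed for the latent form and its activation, 1 was higher and 1 lower. FURIN, the protease that cleaves the TGF-beta precursor, had a log2 fold change of 1.46 (standard error 0.28, adjusted p = 2.87e-05 by limma), and all 29 tumors lay above every normal, as in 7.63% of all genes tested. LTBP4, a latent TGF-beta binding protein of elastic matrix, had a log2 fold change of -2.95 (standard error 0.39, adjusted p = 4.23e-08 by limma), and all 29 tumors lay below every normal, as in 28.5% of all genes tested. The related genes LTBP1, LTBP2 and LTBP3 were not called, with log2 fold changes of -0.08, -1.21 and -0.02. LTBP2 is of the same family but is not known to bind the latent form. MMP14, a membrane protease that can activate latent ligand, had -0.94 (standard error 0.39, adjusted p = 0.0337 by limma), just under 2-fold, and -1.24 in the DESeq-normalized data, where 2 genes of the list were called lower. The fall of LTBP4 also went with lower smooth muscle and fibroblast markers, whose part was not tested.

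Of 5 measured genes in the list of co-receptors and receptor-regulated SMADs, 1 was called. Among them only ENG is a co-receptor and only SMAD2 a receptor-regulated SMAD. SMAD2, the transducer that the type I receptor phosphorylates, had a log2 fold change of 1.20 (standard error 0.22, adjusted p = 1.52e-05 by limma), with all 29 tumors above every normal, as in 7.63% of all genes tested. In the DESeq-normalized table it was 0.90, under 2-fold. SMAD4, its partner, had 0.34 and an adjusted p of 0.161, and ENG (endoglin, an endothelial co-receptor) had -0.34 and an adjusted p of 0.608, both by limma. ZFYVE9 had -0.05 (adjusted p = 0.824 by limma). TRIM33 passed the p threshold with 0.53 (adjusted p = 0.000838 by limma), under 2-fold, where 22.9% of all genes tested were higher at that p. In the DESeq-normalized data TRIM33 had 0.24 (adjusted p = 0.123 by limma).

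Of 9 measured genes listed as inhibitors and feedback, 2 were called higher beside SMAD7, which is not in that count, and none lower. PMEPA1, a pathway-induced protein that holds back SMAD2 and SMAD3, had a log2 fold change of 2.00 (standard error 0.52, adjusted p = 0.00103 by limma), with 28 of 29 tumors above every normal and 1 below. NEDD4L, a ubiquitin ligase for activated SMAD2, had 1.02 (standard error 0.27, adjusted p = 0.00134 by limma), with 28 tumors above every normal. It was 0.72 in the DESeq-normalized table and 0.96 without normal A or C, in each case under 2-fold. Beside these 2 counts of 28, 19.9% of all genes tested had at least 24 tumors above every normal and 7.63% had all 29. The share with at least 28 was not computed. The median of this list was 0.66, and USP4, USP15, PPM1A and SMURF1 passed the p threshold with a rise under 2-fold, from 0.39 to 0.76. In the DESeq-normalized data USP4 alone of these passed it, with 0.46 (adjusted p = 0.0317 by limma), and the others had 0.10 to 0.39. Of all genes tested, 22.9% were higher at that p with no fold threshold. USP4 and USP15 are deubiquitinases known to enhance the pathway, so the list is not one of inhibitors alone. BAMBI, a decoy receptor, had 0.04.

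Of 14 measured target genes, genes that TGF-beta is known to induce in some cell types, 1 was higher and 5 lower, with a median log2 fold change of -0.70. These shares and this median lie near or under those of all genes tested, 10.7% higher and 45.8% lower with a median of -0.84, so they are no result about the target genes as a list. JUNB, an AP-1 factor, was the one that rose, by 1.46 (standard error 0.26, adjusted p = 1.05e-05 by limma). CTGF, a matricellular growth factor, had a log2 fold change of -4.17 (standard error 0.61, adjusted p = 3.04e-07 by limma), and all 29 tumors lay below every normal, as in 28.5% of all genes tested. TNC (tenascin C) had -3.25 (standard error 0.60, adjusted p = 1.44e-05 by limma). The other 3 that fell, named after their values were seen, were COL1A1 and COL1A2, the chains of type I collagen, and POSTN (periostin), with log2 fold changes of -3.04, -3.03 and -2.30. Other matrix genes of the list, TGFBI and LOXL2, were not called, with -0.53 and 0.91. Fibroblast and muscle markers fell with the 5 genes, and their part was not tested.

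The other 8 target genes were not called. The transcriptional repressors ID3 and BHLHE40 had log2 fold changes of 0.13 and 0.66, with adjusted p-values of 0.694 and 0.101 by limma. CDKN1A, the cell cycle inhibitor p21, had 0.54 and an adjusted p of 0.141 by limma.

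**Figure D3:**
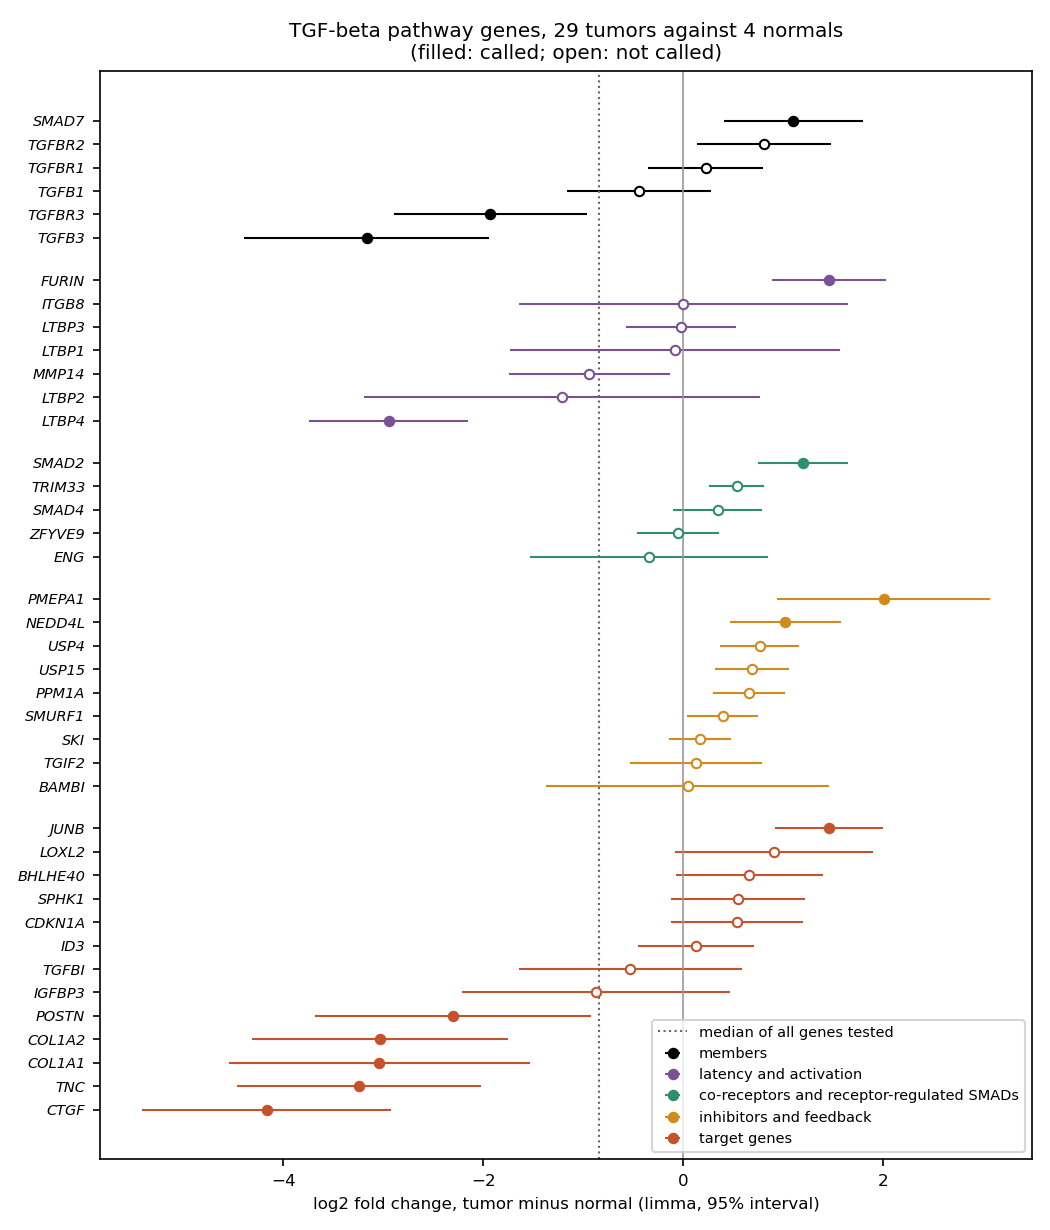
Log2 fold change of tumors minus normals on the x axis with its 95% interval from limma, for the 6 genes (black) and the measured pathway genes by role, without 1 target gene that was not called. Filled points were called, open points were not, and the dotted line is the median of all genes tested, -0.84. All 9 genes listed as inhibitors and feedback have estimates above 0, of which SKI, TGIF2 and BAMBI turn below 0 in the DESeq-normalized data, and the target genes run from -4.17 to 1.46.

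Among the 29 tumors the 6 genes varied to different degrees. TGFB3 had the largest SD of the 6, 1.22, above that of 85.2% of all genes tested, and its tumor values spanned 5.24 on the log2 scale. TGFBR3 followed with 0.96, above 72.0% of genes. TGFB1, SMAD7, TGFBR2 and TGFBR1 had 0.70, 0.68, 0.66 and 0.55, close to the middle of all genes or below it. An SD mixes differences among tumors with counting error, and the depth behind each value is unknown.

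Co-variation over the 29 tumors was measured with Pearson's r and Spearman's rho, each with a two-sided permutation p, over 15 pairs of the 6 genes and 48 relations with scores, adjusted over all 63. A score is the mean z of the measured genes of a list. Only TGFB1 with TGFB3 passed among the 15 pairs, with r = 0.560 (permutation p = 0.00149, adjusted p = 0.0117) and rho = 0.559 (permutation p = 0.00187, adjusted p = 0.0147). Without the 2 tumors whose TGFB1 lay farthest from the median, r was 0.559.

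The pooled r spans the gap in TGFB1. As a description with no test, r was -0.05 over the 15 tumors below the gap and -0.09 over the 14 above it. A split on TGFB1 itself narrows its range and so lowers r. With the fibroblast score regressed out of both genes r was 0.311, with an adjusted p of 0.374 over the 15 pairs by permutation.

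The receptors and SMAD7 did not vary together beyond the correction. TGFB1 with TGFBR1 had r = 0.416 (permutation p = 0.0248, adjusted p = 0.0870, rho = 0.334). TGFBR2 with SMAD7 had r = -0.363 (permutation p = 0.0531, adjusted p = 0.159, rho = -0.308), and TGFBR2 with TGFBR3 had r = -0.283 (permutation p = 0.136, adjusted p = 0.295, rho = -0.316).

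**Figure D4:**
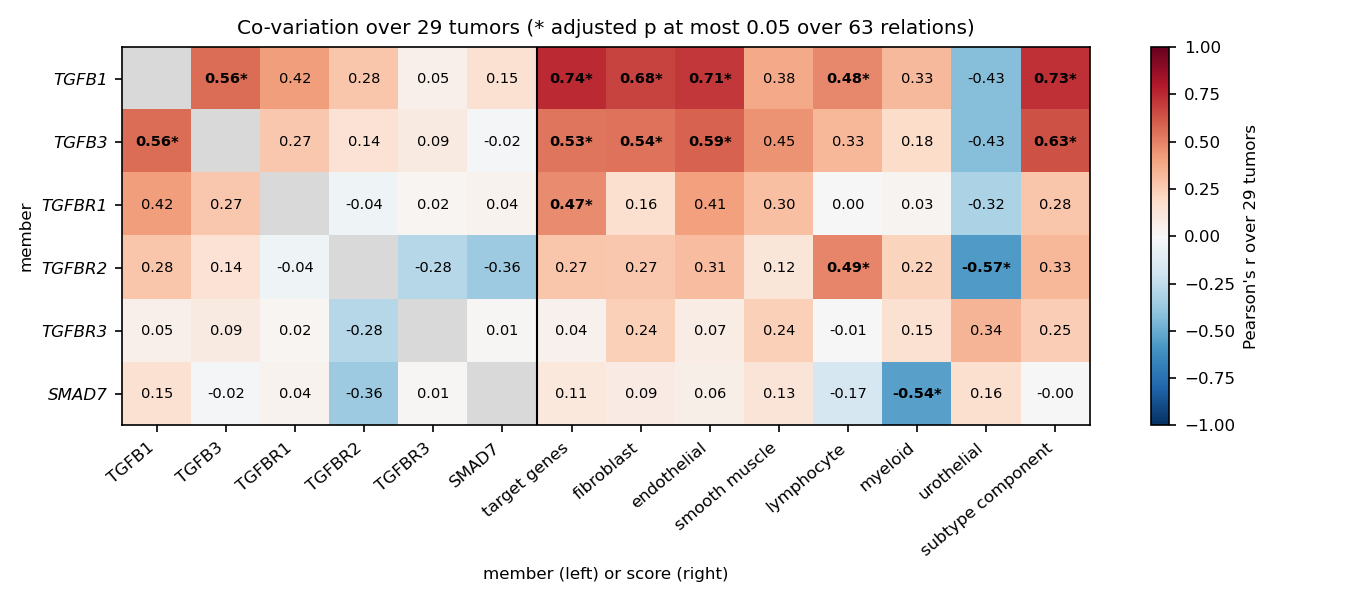
Pearson's r over 29 tumors between the 6 genes (left of the line) and of each gene with 8 scores (right of the line), on a scale from -1 to 1. An asterisk marks an adjusted p of at most 0.05 over 63 relations. The ligands TGFB1 and TGFB3 carry 10 of the 14 marked relations, all with r above 0.

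With the scores, 13 of 48 relations passed by r, 11 of them with r above 0, and 10 passed by both r and rho. Both ligands rose with the fibroblast and endothelial scores. TGFB1 had r = 0.679 with the fibroblast score (permutation p = 4e-05, adjusted p = 0.000630, rho = 0.682) and r = 0.711 with the endothelial score (permutation p = 3e-05, adjusted p = 0.000630, rho = 0.663). For TGFB3 these were r = 0.541 (permutation p = 0.00250, adjusted p = 0.0159, rho = 0.537) and r = 0.588 (permutation p = 0.000890, adjusted p = 0.00934, rho = 0.567). With the smooth muscle score both missed the correction, TGFB3 with r = 0.451 (permutation p = 0.0146, adjusted p = 0.0614, rho = 0.462) and TGFB1 with r = 0.381 (permutation p = 0.0373, adjusted p = 0.118, rho = 0.432). With the urothelial score both had r below 0 that missed the correction, TGFB1 with r = -0.427 (permutation p = 0.0198, adjusted p = 0.0779, rho = -0.416) and TGFB3 with r = -0.426 (permutation p = 0.0219, adjusted p = 0.0811). By rho TGFB3 passed, with -0.547 (adjusted permutation p = 0.0178), and without tumors Da6 and Ab, the most distant in that score, TGFB1 passed with r = -0.541 (adjusted permutation p = 0.0220).

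Both ligands also varied with the first principal component of 636 genes, those found among the genes read from a longer list that the study used to separate basal from luminal tumors. The component holds 25.1% of their variance and was turned so that the adhesion gene CDH1 falls along it, and whether it separates the subtypes was not tested. It ran with other scores, with r = 0.889 for fibroblast (permutation p = 1e-05, the smallest possible, rho = 0.894), 0.766 for endothelial (permutation p = 1e-05, rho = 0.769) and 0.720 for smooth muscle markers (permutation p = 1e-05, rho = 0.834), each with an adjusted p of 1.75e-05 over 7 scores. The study chose those genes and compared them in these same tumors. TGFB1 had r = 0.734 with it (permutation p = 2e-05, adjusted p = 0.000630, rho = 0.680) and TGFB3 r = 0.634 (permutation p = 0.000250, adjusted p = 0.00315, rho = 0.624). For TGFBR2, TGFBR1, TGFBR3 and SMAD7 r was 0.331, 0.280, 0.247 and -0.003, with adjusted permutation p-values of 0.209, 0.295, 0.349 and 0.986.

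TGFB1 was also related to the score of the 14 target genes, with r = 0.743 (permutation p = 2e-05, adjusted p = 0.000630, rho = 0.719). Of the 14 genes taken one by one, 4 passed the correction with TGFB1 by r and 10 did not. Of the 4, COL1A1 and POSTN missed the correction by rho, with adjusted permutation p-values of 0.0638 and 0.0654. All 14 had r above 0 with TGFB1, from 0.05 for SPHK1 to 0.625 for COL1A2, with a median r of 0.418, where 49.5% of all genes tested did and their median r was -0.003. TGFB3 had r above 0 with 13 of 14 and a median of 0.279, where 52.7% of all genes tested had r above 0 with it. Thus, although 5 target genes were lower in tumors than in normals, r of TGFB1 with their score was above 0 over the 29 tumors. As a description with no test, and over a narrower range of TGFB1, r with the target-gene score was 0.180 below the TGFB1 gap and 0.806 above it. In the same way it was 0.34 and 0.39 with the fibroblast score, 0.07 and 0.49 with the endothelial score, 0.51 and 0.23 with the lymphocyte score, and 0.26 and 0.35 with the component.

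The target-gene score itself had r = 0.840 with the fibroblast score over the tumors. With the fibroblast score regressed out, a setting added after the data were seen, TGFB1 with the target genes had r = 0.434 (permutation p = 0.0187, adjusted p = 0.0561 over the 6 genes, rho = 0.307). TGFB3 had r = 0.534 with the target-gene score (permutation p = 0.00277, adjusted p = 0.0159, rho = 0.570) and r = 0.174 (permutation p = 0.364, adjusted p = 0.546, rho = 0.165) with the fibroblast score regressed out. For TGFBR1, r with the target genes was 0.472 (permutation p = 0.00942, adjusted p = 0.0424, rho = 0.489) as measured and 0.627 (permutation p = 0.000130, adjusted p = 0.000780, rho = 0.483) with the fibroblast score regressed out, and its r with the fibroblast score was 0.16.

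TGFBR2 and SMAD7 were related to immune scores. SMAD7 was lower in tumors with more myeloid markers, with r = -0.541 (permutation p = 0.00272, adjusted p = 0.0159, rho = -0.537), and r was -0.580 without the 2 tumors whose myeloid score lay farthest from the median. TGFBR2 rose with the lymphocyte score, with r = 0.488 (permutation p = 0.00726, adjusted p = 0.0381), and fell with the urothelial score, with r = -0.566 (permutation p = 0.00119, adjusted p = 0.0107). Both relations of TGFBR2 rested on a few tumors: rho was 0.383 and -0.405, with adjusted permutation p-values of 0.145 and 0.111, and r was 0.337 and -0.381 with the 2 most distant tumors of each score left out, Da6 and 4 for lymphocyte markers, Da6 and Ab for urothelial ones. TGFB1 with the lymphocyte score had r = 0.481 (permutation p = 0.00802, adjusted p = 0.0389), and rho = 0.467 missed the correction (adjusted permutation p = 0.0557).

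**Figure D5:**
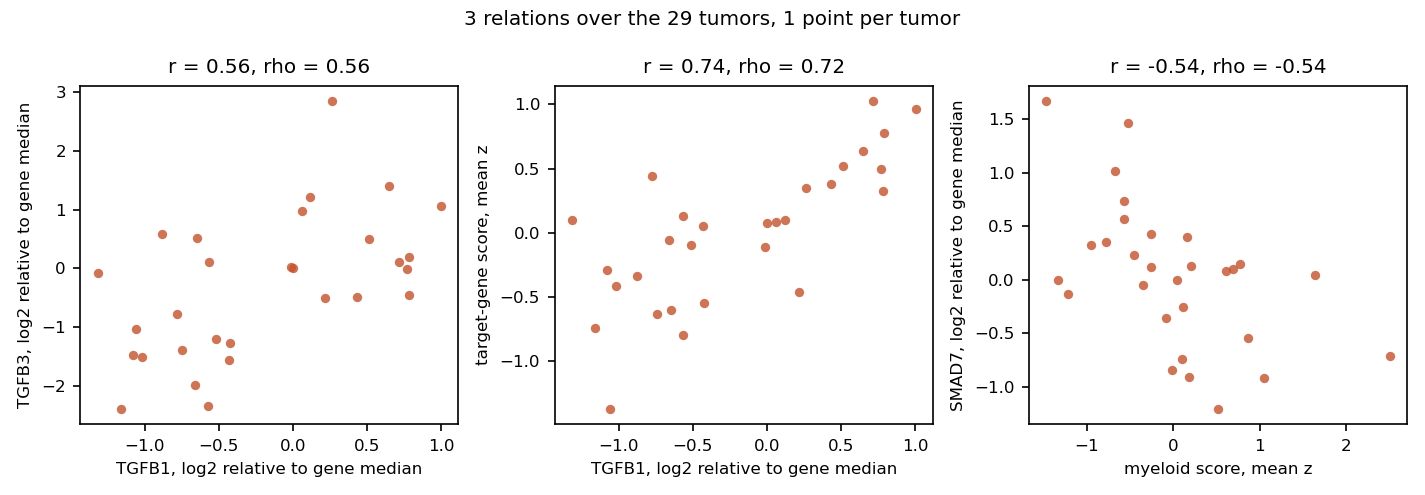
Each point is 1 of the 29 tumors: TGFB3 against TGFB1 (both log2 relative to the gene median), the target-gene score against TGFB1, and SMAD7 against the myeloid score, scores being mean z. TGFB1 values leave a gap between -0.42 and -0.01, and over all 29 tumors r is 0.560 between TGFB1 and TGFB3, 0.743 between TGFB1 and the target-gene score, and -0.541 between SMAD7 and the myeloid score.

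Each of the 6 genes was also correlated with each of the 35 measured pathway genes, 210 relations with p-values from permutation and adjusted over all 210. Of these, 17 passed with r above 0 and 2 with r below 0, and 15 passed by both r and rho. TGFB1 accounted for 7 of its 35, the smallest with r = 0.538, a size that 3.18% of all genes tested reached with TGFB1. SMAD7 accounted for 5 of 35, the smallest with r = 0.519, a size that 1.03% of all genes reached with it. TGFB3, TGFBR1 and TGFBR2 had 2 each and TGFBR3 had 1, where 1.76%, 0.727%, 0.673% and 1.02% of all genes reached the size of their smallest.

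By r SMAD7 was related to 2 of the 9 genes listed as inhibitors and feedback, PMEPA1 and BAMBI, while the median r over the 9 was 0.075 and NEDD4L had r = -0.376 (adjusted permutation p = 0.201). SMURF1 missed the correction by r, with 0.456 (adjusted permutation p = 0.0884), and passed by rho, with 0.593 (adjusted permutation p = 0.0191). The r of SMAD7 with PMEPA1 was 0.694 (permutation p = 4e-05, adjusted p = 0.00262, rho = 0.740), and 0.612 with the 2 most distant PMEPA1 values left out. With BAMBI r was 0.524 (permutation p = 0.00373, adjusted p = 0.0445, rho = 0.611). With IGFBP3, a target gene that binds insulin-like growth factors, r was 0.627 (permutation p = 0.000280, adjusted p = 0.00882, rho = 0.592). SMAD2 and LTBP1 passed as well, with r = 0.519 (permutation p = 0.00403, rho = 0.542) and r = 0.523 (permutation p = 0.00373, rho = 0.524), each with an adjusted p of 0.0445.

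TGFB1 was related to 2 of the 7 genes listed for the latent form and its activation, MMP14 and LTBP2, and to the endothelial co-receptor ENG. The other 5 of the 7 missed the correction, with r from -0.07 for FURIN to 0.463 for LTBP1. ENG had r = 0.673 with it (permutation p = 4e-05, adjusted p = 0.00262, rho = 0.709), MMP14 r = 0.670 (permutation p = 5e-05, adjusted p = 0.00262, rho = 0.676), and LTBP2 r = 0.667 (permutation p = 0.000160, adjusted p = 0.00672, rho = 0.682). ID3, a target of the BMP branch as well, had r = 0.621 (permutation p = 0.000330, adjusted p = 0.00882, rho = 0.624). COL1A2 had r = 0.625 with TGFB1 (permutation p = 0.000420, adjusted p = 0.00882, rho = 0.578) and r = 0.609 with TGFB3 (permutation p = 0.000390, adjusted p = 0.00882, rho = 0.593). TGFB1 also had r = 0.711 with the endothelial score and r = 0.679 with the fibroblast score, as given above. Neither score was regressed out of these single-gene relations, so the part of stromal content in them was not tested.

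Each receptor was related to 1 or 2 of the 14 target genes. TGFBR1 had r = 0.678 with BHLHE40, a hypoxia- and TGF-beta-induced repressor (permutation p = 5e-05, adjusted p = 0.00262, rho = 0.586), and r = 0.537 with CDKN1A (permutation p = 0.00345, adjusted p = 0.0445), whose rho of 0.229 missed the correction (adjusted permutation p = 0.489). TGFBR2 had r = 0.622 with CTGF (permutation p = 0.000400, adjusted p = 0.00882, rho = 0.553) and r = -0.575 with ZFYVE9, the adaptor that brings SMAD2 to the receptor (permutation p = 0.00104, adjusted p = 0.0199, rho = -0.659). TGFBR3 had 1 relation past the correction, r = -0.524 with SPHK1 (permutation p = 0.00278, adjusted p = 0.0432), and its rho of -0.397 missed it (adjusted permutation p = 0.178).

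The genes most like each of the 6 over the tumors were taken as the 3 with the highest r among 9843 genes with a symbol that lay above the lowest value in all 29 tumors, as a description with no test. For TGFB1 they were EOGT (r = 0.860), the basement membrane collagen COL15A1 (r = 0.835) and SLC43A3 (r = 0.820). For TGFB3 they were ROBO3 (r = 0.766), the chemoattractant gene RARRES2 (r = 0.722) and the transcription factor TCF4 (r = 0.697). For TGFBR1 they were BHLHE40, named above, the oxidase NOX4 (r = 0.663) and ATL3 (r = 0.656). For TGFBR2 they were the TNF receptor TNFRSF1B (r = 0.755), the lysosomal protease CTSH (r = 0.728) and CMTM7 (r = 0.716). For TGFBR3 they were KDELC2 (r = 0.752), SMYD4 (r = 0.709) and SPTLC3 (r = 0.685). For SMAD7 they were NRARP, a feedback gene of the Notch pathway (r = 0.723), the histone methyltransferase NSD3 (r = 0.707) and ENDOV (r = 0.704). No gene stood in more than 1 of these lists of 3.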

How the data were processed

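RNA-seq was done on 4 normal and 29 tumor samples. Per the labels, ribosomal RNA was removed, libraries were made with ScriptSeq v2, and 150 bp paired-end reads from an Illumina HiSeq 4000 were aligned to CanFam 3.1 with COBWeb in Strand NGS 3.1. The authors made 2 tables, with TMM or DESeq normalization, and deposited log2 values from which each gene's median over 33 samples was subtracted. These are not counts, so total counts and depth are unknown. There were 25096 genes with TMM values and 25139 in the other table, in copies that end within a line, which was dropped.

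Genes above a shared lowest value in at least 4 samples were tested with limma 3.58.1 (R 4.3.3; lmFit, eBayes with trend) and Benjamini-Hochberg adjustment, without a pseudocount. Ratios, and each of the 6 genes, were compared by exact permutation of the samples. Correlations used 100000 permutations (Python 3.11.15, numpy 2.4.6, scipy 1.17.1), with 1e-05 the smallest p possible. Scripts were tested on simulated data. Since 1 ligand was not analysed, 4 ratios and 15 pairs were run in place of the larger numbers designed. The genes and lists were chosen with earlier results of these data known. Of each list the 2 largest called rises and falls are named, and other pathway genes with values, and those singled out by a correlation, were chosen after their values were seen. Gene symbols are those of the tables. 1 target gene is counted in its list but is not reported here by itself. Tumors came from separate dogs. For normals this is not stated for each sample, so p-values measure the spread between these samples.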

Additional observations from a re-analysis of the deposited data

How the results depend on the processing

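The alternatives were the DESeq-normalized table, limma with a weight per group or no trend, different filters, a raised lowest value, centred samples, each normal left out, no fold threshold and, added after the data were seen, 2 muscle-rich tumors left out. TGFB3 and TGFBR3 stayed called lower in each, between -3.46 and -2.96 and between -2.23 and -1.85. In the DESeq-normalized table TGFBR1 was -0.076, SMAD7 0.80 (under 2-fold) and 3 pathway genes were called higher in place of 5; with no fold threshold TGFBR2 passed with 0.80 and 10 pathway genes passed as higher. With each normal left out SMAD7 was 1.00 to 1.21, the lowest, under 2-fold, without normal C. The cause of these changes was not tested, beyond the shift between tables of -0.27 in the median of all genes. All-gene counts of higher calls were 2615, 1377 in the DESeq-normalized table and 5603 with no fold threshold, and lower calls were 11206, or 5543 where genes had to lie above the lowest value in 17 samples. Higher calls made up 18.9% of all calls, 10.3% in the DESeq-normalized table and 31.9% with that filter. The 4 ratios kept their direction and side of the threshold in each alternative run. With the fibroblast score regressed out 0 of 15 pairs passed, against 1. Of 42 relations with an unadjusted p above 0.05 by r and rho, 14 changed sign in some setting, each with r of at most 0.16 in size, and none passed the correction. Urothelial markers called higher were 3, not 6, in the DESeq-normalized table and without normal D. The normals came from dogs euthanized for reasons other than bladder disease and the tumors from dogs with iUC, so no paired analysis was possible.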
